A study of Mus musculus with 16 samples.

Results

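The genes described here are Trp53, which encodes the transcription factor p53, its relative Trp73, and 30 genes grouped as p53 targets or controllers. They were taken by symbol from the RNA tables of a study of cultured mouse cortical neurons, and all 32 were found among 22440 genes. The study measured RNA in 4 libraries, 1 per group, and 12 chromatin samples that were not analysed here. All cultures were primary cells from the cortex of Swiss-Webster embryos at day 16 of gestation, kept in neurobasal medium with B27 supplement. One group, titled Etoposide, received etoposide at 5 µM for a time that the labels do not state. The group titled NMDA received the glutamate receptor agonist N-methyl-D-aspartate, which the labels give for most experiments as 50 µM for 10 minutes with 10 minutes of recovery. The groups CTRL and CTRL2 carry no treatment in their titles. The authors' deposited tables head each control column only as CONT, and their values set CTRL beside Etoposide and CTRL2 beside NMDA. With 1 library per group there was no replicate check, so no comparison has a test or a p-value. No label names a deleted or silenced gene, and none says how many embryos or plates went into a library.

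Etoposide stabilises the complex in which topoisomerase II has cut both DNA strands, and so leaves double-strand breaks. Breaks activate the kinases ATM and CHK2, which free p53 from its ubiquitin ligase MDM2. The stabilised protein then binds paired half-sites near its targets and raises transcription of genes for cell cycle arrest, DNA repair, cell death and its own inhibition. Activation of p53 acts mostly on its protein, so the Trp53 transcript need not move with it. In neurons, which do not divide, p53 is known chiefly for its part in death after DNA damage. NMDA opens a calcium-permeable channel and drives activity-dependent transcription.

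The sequences below are shown because they hold the best matches to a p53 response element in the promoters of these genes. Windows of 300 bases, from 250 before to 50 after a start, came from RefSeq on GRCm38.p6 and matched 24 of the 32 genes with 34 windows. Windows were not in the table used here for Pmaip1, Perp, Tnfrsf10b, Rrm2b, Xpc, Ddb2, Trp53inp1 and Zmat3. The search took a pair of p53 half-sites of 10 bases each with 0 to 13 bases between them, on both strands, since the motif reads alike on each. Capitals mark the half-sites, and each run is 5′ to 3′ on the strand of the gene.
Cdkn1a: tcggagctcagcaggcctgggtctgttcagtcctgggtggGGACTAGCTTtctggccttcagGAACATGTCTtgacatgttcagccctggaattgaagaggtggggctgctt
Ccng1: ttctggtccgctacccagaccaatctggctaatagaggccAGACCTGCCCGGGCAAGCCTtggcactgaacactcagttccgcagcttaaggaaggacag
Bax: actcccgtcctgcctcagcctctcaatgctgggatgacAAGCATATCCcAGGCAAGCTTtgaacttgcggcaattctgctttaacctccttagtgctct
Polk: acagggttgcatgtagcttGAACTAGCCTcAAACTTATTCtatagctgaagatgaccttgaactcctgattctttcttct
Rps27l: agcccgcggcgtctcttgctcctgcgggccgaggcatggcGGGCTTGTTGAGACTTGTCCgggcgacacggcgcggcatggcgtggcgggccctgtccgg

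The Cdkn1a stretch is chr17:29090866-29090977 on the plus strand. Its pair, with 12 bases between the half-sites, had 0 mismatches and began 73 bases before 1 of the annotated starts of Cdkn1a. Its second half-site also begins the contiguous pair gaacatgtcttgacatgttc, which has 1 mismatch. The other 4 pairs each had 1 mismatch in 20 positions. Ccng1 lies at chr11:40755422-40755521 on the minus strand, with its pair 195 bases before the start. Bax lies at chr7:45467050-45467148 on the minus strand, with its pair 212 bases before the start. Polk lies at chr13:96519358-96519437 on the minus strand, with its pair 231 bases before 1 of its annotated starts. Rps27l lies at chr9:66946256-66946355 on the plus strand, with its pair 117 bases before 1 of its annotated starts. A pair with at most 1 mismatch stood in the windows of 5 of 24 genes (20.8%), against 335 of 27025 genes in the whole table (1.24%). With at most 2 mismatches the numbers were 8 of 24 genes (33.3%), the others being Aen, Sesn1 and Trp73, against 3102 genes (11.5%). A single half-site with no mismatch stood in 11 of 24 genes (45.8%) and in 9.55% of all genes. These are matches of letters within 300 bases, and elements farther away or inside genes were outside the search.

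The tables give FPKM, a length- and depth-normalised fragment density that the authors computed. Read from the smallest steps of the values, 1 fragment on 1 kb was worth about 0.0469 to 0.0701 FPKM, the larger value in the etoposide library, and 9836 to 12886 genes reached 1 FPKM. The scales of the libraries differed: the median gene among 9533 genes at 1 FPKM or more in all 4 stood at 5.65 FPKM in CTRL, 4.18 with etoposide, 17.3 in CTRL2 and 17.7 with NMDA. Each gene was therefore read relative to the median gene of its pair of libraries. In these units the summed level of 8 neuronal markers was 102 in CTRL, 81.4 with etoposide, 85.8 in CTRL2 and 88.8 with NMDA, and all 8 passed 1 FPKM in every library. The summed level of 7 astrocyte markers was 14.4, 10.2, 37.3 and 34.3 in that order, and that of 7 oligodendrocyte lineage markers 3.58, 1.12, 11.2 and 10.6, with Sox10 at 0 under etoposide. For 7 markers of dividing progenitors it was 3.13, 1.65, 6.62 and 6.51. For 7 vascular and mesenchymal markers it was 0.995, 0.105, 1.86 and 1.49, with Cldn5 at 0 in every library except CTRL2 and Kdr at 0 under etoposide. Microglial markers summed to 0.0683, 0.0837, 0.239 and 0.192, with C1qa at 0 in CTRL and Tmem119 at 0 under etoposide. In bulk RNA, fewer cells of a type and less RNA per cell cannot be told apart.

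With etoposide most of the p53 genes stood above the median gene. The log2 fold of (FPKM + 1) minus the median over all genes, here the relative log2 fold, was above 0 for 25 of the 29 genes that reached 1 FPKM in either library, against 50% of 10681 genes by construction. Its median over the 29 was 0.28, with a range from -0.36 for Sesn3 to 1.04 for Pmaip1. Of the 29, 8 were at least 1.5-fold higher relative to the median, against 9.21% of all genes: Pmaip1, Rps27l, Trp53inp1, Ercc5, Ddb2, Polk, Bbc3 and Fas. The count was 2 when no filter on FPKM was used (2.65% of all genes), 13 against CTRL2 in place of CTRL (19.1%) and 14 there with median scaling (16.8%). In the main comparison none was at least 1.5-fold lower, against 10.2% of all genes. On this scale Pmaip1 alone was at least 2-fold higher, as were 1.47% of all genes. In plain relative ratios, without the added 1 FPKM, Ddb2 and Polk also passed 2-fold, at 2.06 each. By that ratio Aen at 1.53 and Perp at 1.64 passed 1.5-fold as well, and no share of all genes was computed for it. Trp73, Dram1 and Gdf15 stayed under 1 FPKM and are described apart. Perp and Polk passed 1 FPKM only with etoposide and Ddit4l only in the control. Among the 26 genes that passed in both libraries, 23 were above the median. The marker sums of neurons, astrocytes, the oligodendrocyte lineage, progenitors and vascular cells were lower with etoposide than in CTRL, as given above, and their part in the result was not tested. In CTRL, Acta2 made 4.61 of the 5.63 FPKM of the vascular sum, and Olig1 16.6 of the 20.3 FPKM of the oligodendrocyte sum. Stmn2 alone of the neuronal markers and Gfap alone of the astrocyte markers compared stood above the median gene.

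The median of all genes was itself lower with etoposide as deposited, at -0.32 on the log2 scale with 1 FPKM added. The median plain FPKM ratio, over genes at 1 FPKM or more in both libraries, was 0.762. In FPKM as deposited, 14 of the 29 p53 genes were higher with etoposide, against 23.3% of all genes, and 3 of them (Pmaip1, Ddb2 and Polk) by over 1.5-fold, against 4.09%. The other 11 genes above the median were thus lower than in CTRL in FPKM, but by less than the median gene. Ccng1, the gene for cyclin G1, was among the 14, at 19.8 FPKM in CTRL and 22.3 with etoposide, and Cdkn1a was among the 11, at 13.2 and 12.4. The sum over all 32 genes was 199.6 FPKM in CTRL and 206.3 with etoposide. Adding 1 to a low FPKM pulls its fold towards 0. In a setting called median scaling, the treated library was first divided by the median plain ratio of its pair, here 0.762. The 1 FPKM was still added to both values, so that pull remained for low genes. Then 25 of 29 were above the median, 7 were at least 1.5-fold higher (10.2% of all genes), and the group median was 0.33. Set against genes of like level the numbers were 25, 7 (9.19% of all genes) and 0.35.

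The authors' deposited table for etoposide lists 692 genes, 680 of them lower with treatment, and none of the 32. Beside the 22440 genes measured, a list of that length would hold few of any 32 genes. Its lack of p53 genes therefore says little about them. By span, the p53 genes compared had a median span of 17.9 kb with none over 100 kb, whereas all genes compared had 25.8 kb and 16.1% over 100 kb. Set against genes of like span, 23 of 29 stood above 0, 6 were at least 1.5-fold higher (6.76% of all genes) and the median was 0.25. An interval for each ratio, from approximate fragment numbers and covering counting error only, put 18 of the 29 genes above the median gene, 1 below it and 10 on both sides. Of all 10550 genes with a transcript length, 26.6% lay above and 32.8% below by the same interval, so an interval clear of the median gene was common. For Ccng2, Eda2r and Rrm2b among the 18, it reached the median gene when the mean transcript length replaced the longest. With the value of 1 fragment set 20 percent larger, 17 were above and 1 below, and Rrm2b reached the median gene.

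**Figure D1:**
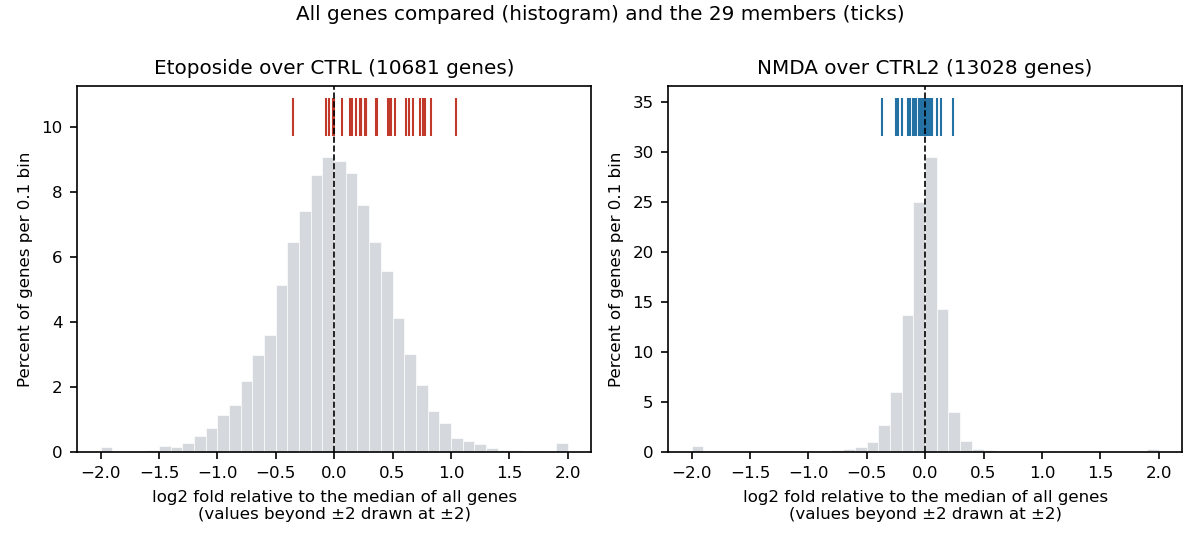
Histograms of the relative log2 fold of all genes compared (vertical axis, percent of genes per bin) for etoposide over CTRL and NMDA over CTRL2, with ticks for the 29 p53 genes. With etoposide 25 ticks lie to the right of 0, and with NMDA 13 do.

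**Figure D2:**
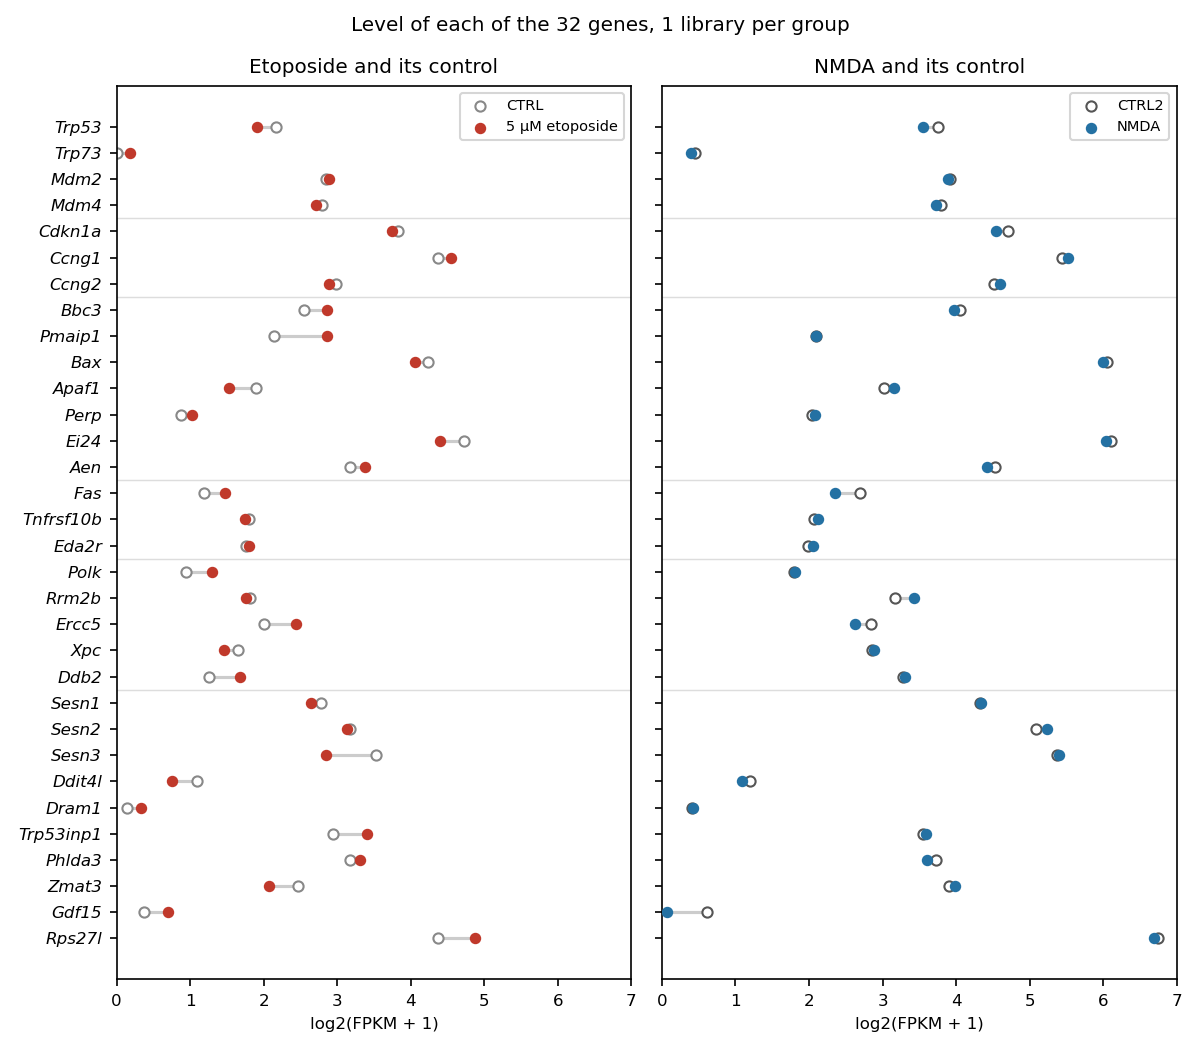
Level of each of the 32 genes as log2(FPKM + 1), with the control as an open and the treated library as a filled point, 1 library each. Pmaip1 shows the widest gap of the etoposide pair among genes higher with treatment. The points of the NMDA pair lie close together for most genes, with wider gaps for Gdf15 and Fas.

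Among p53 and its controllers, Trp53 itself showed no displacement that the counting interval could tell from the median gene. Trp53 (chr11:69393861-69405375 on mm9, plus strand) was 3.47 FPKM in CTRL and 2.76 with etoposide, from about 192 and 129 fragments. Divided by the ratio of the median gene, its ratio was 1.04 with a 95% counting interval from 0.829 to 1.31, and it ranked 4664 of 10681 genes. Its relative log2 fold was 0.07, and -0.09 against genes of like span. Mdm2, whose product ubiquitinates p53 and whose gene is a p53 target, was 6.22 FPKM in CTRL and 6.40 with etoposide, a relative ratio of 1.35 (interval 1.15 to 1.59). Mdm4, a p53 inhibitor that pairs with MDM2, was 5.96 and 5.52 FPKM, a relative ratio of 1.22 (1.03 to 1.43). Both inhibitor transcripts thus stood above the median gene while that of Trp53 did not beyond counting error. Trp73, which encodes the p53 relative p73, was listed at 0 in CTRL, where 3 fragments would give 0.0352 FPKM, and at 0.139 FPKM with etoposide, about 10 fragments. Its exons overlap those of Gm13116 on the other strand, and the labels do not state whether the counting used strand.

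All 3 genes of cell cycle arrest were above the median, by a median of 0.23 on the log2 scale that was 0.05 against genes of like span. Cdkn1a (chr17:29227931-29237667 on mm9, plus strand) encodes p21, the inhibitor of cyclin-dependent kinases and the best known p53 target. Its level was 13.2 FPKM in CTRL and 12.4 with etoposide, its relative ratio was 1.23 (1.06 to 1.42), and it ranked 3201 of 10681 genes. Cdkn1a, the only 1 of the 24 genes searched with an exact pair of half-sites, was not among the 8 highest. Of those 8, Pmaip1, Trp53inp1 and Ddb2 had no promoter window to search, so pairs and folds cannot be compared across them. Ccng1 (chr11:40562054-40568788 on mm9, minus strand), which encodes a cyclin that recruits a phosphatase to MDM2, had a relative ratio of 1.48 (1.36 to 1.61) from 1174 and 1119 fragments. Ccng2, which encodes a related cyclin of cell cycle exit, was 6.93 and 6.39 FPKM, a relative ratio of 1.21 (1.06 to 1.38).

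The 7 genes of intracellular death steps ranged most widely upwards, with a median relative log2 fold of 0.48 and 6 of 7 above 0. That median was the value of Perp, which passed 1 FPKM only with etoposide. Pmaip1 encodes NOXA, a BH3-only protein that binds and blocks MCL1. Its level was 3.41 FPKM in CTRL and 6.26 with etoposide, about 153 and 237 fragments. Its relative ratio was 2.41 (1.96 to 2.97) and it ranked 134 of 10681 genes. Bbc3 (chr7:16894932-16903683 on mm9, plus strand) encodes PUMA, the BH3-only protein most often tied to p53-dependent death of neurons. Bbc3 was 4.83 FPKM in CTRL and 6.29 with etoposide, a relative ratio of 1.71 (1.36 to 2.15). Aen, which encodes a nuclease that digests DNA in apoptosis, was 8.05 and 9.41 FPKM, a relative ratio of 1.53 (1.37 to 1.72) and a relative log2 fold of 0.52. Perp, a membrane protein gene of p53-driven apoptosis, was 0.827 and 1.03 FPKM from only 27 and 28 fragments, and its interval ran from 0.916 to 2.84.

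Bax, Apaf1 and Ei24 lay nearer the median gene than the other 4 of this group. Bax encodes the protein that permeabilises the mitochondrial outer membrane once BH3-only proteins release it. Bax was 17.8 FPKM in CTRL and 15.7 with etoposide, a relative ratio of 1.16 (0.970 to 1.37), and its promoter holds a pair of half-sites with 1 mismatch. Apaf1, the scaffold of the apoptosome that activates caspase 9, was 2.72 and 1.89 FPKM, a relative ratio of 0.912 (0.755 to 1.10). Ei24, an endoplasmic reticulum protein gene first found as etoposide-induced, was 25.4 and 20.1 FPKM, a relative ratio of 1.04 (0.939 to 1.15). Its exons overlap those of Gm16881 on the other strand. For these 3 the interval included the ratio of the median gene.

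The 3 death receptor genes were all above the median, at low levels. Fas (chr19:34365149-34402260 on mm9, plus strand), the receptor of FAS ligand, was 1.28 FPKM in CTRL and 1.79 with etoposide. With about 32 and 38 fragments its relative ratio of 1.84 carried an interval from 1.12 to 3.05. Tnfrsf10b, the mouse TRAIL receptor gene, was 2.49 and 2.36 FPKM, a relative ratio of 1.24 (0.961 to 1.63). Eda2r, which encodes a receptor of ectodysplasin A2, was 2.37 and 2.47 FPKM, a relative ratio of 1.37 (1.11 to 1.69). For Tnfrsf10b counting error alone could place it at the median.

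Genes of DNA repair and nucleotide supply had the highest median of the 6 role groups, 0.67, with 5 of 5 above 0 and 3 at least 1.5-fold higher. That median was the value of Polk, 1 of the 3, which passed 1 FPKM only with etoposide. Ercc5 (chr1:44204589-44238105 on mm9, plus strand) encodes XPG, which cuts 3′ of the lesion in nucleotide excision repair. Ercc5 was 2.997 FPKM in CTRL and 4.41 with etoposide, a relative ratio of 1.93 (1.61 to 2.32) from 215 and 267 fragments. Ddb2 encodes the damaged-DNA binding protein that passes lesions to XPC in global genome repair. Ddb2 was 1.39 and 2.19 FPKM, a relative ratio of 2.06 (1.44 to 3.01). Its exons overlap those of Acp2 on the other strand, so that reads of the pair could not be told apart without strand. Polk (chr13:97250644-97312440 on mm9, minus strand), the translesion polymerase kappa, was 0.929 and 1.46 FPKM from 66 and 88 fragments, a relative ratio of 2.06 (1.49 to 2.90).

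The other repair genes were nearer the median. Rrm2b encodes the p53-inducible ribonucleotide reductase subunit that supplies nucleotides in cells outside S phase. Rrm2b was 2.52 FPKM in CTRL and 2.40 with etoposide, a relative ratio of 1.25 (1.01 to 1.55). Xpc, the lesion sensor of global genome repair, was 2.13 and 1.76 FPKM, a relative ratio of 1.08 (0.839 to 1.38). So within nucleotide excision repair the relative ratios of Ddb2 and Ercc5 were near 2 and that of Xpc near 1.

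The 10 genes of growth, stress and autophagy control were the most mixed, with 5 of the 8 compared above 0. Trp53inp1 (chr4:11083588-11101524 on mm9, plus strand) encodes a nuclear protein of stress and autophagy that promotes phosphorylation of p53. It was 6.69 FPKM in CTRL and 9.58 with etoposide, a relative ratio of 1.88 (1.69 to 2.09), which with 615 and 743 fragments was the narrowest interval of the 8 highest genes. Rps27l (chr9:66793925-66797316 on mm9, plus strand), a ribosomal protein S27 relative known as a p53 target, was 19.6 and 28.3 FPKM, a relative ratio of 1.89 (1.55 to 2.30). Its reads can be shared with near-identical ribosomal copies, so its level is uncertain. Phlda3, whose product blocks AKT at the membrane, was 8.05 and 8.95 FPKM, a relative ratio of 1.46 (1.19 to 1.79).

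The sestrins, which restrain the growth kinase complex mTORC1 when amino acids are short, differed among themselves. Sesn2 was 8.03 FPKM in CTRL and 7.75 with etoposide, a relative ratio of 1.27 (1.10 to 1.45). Sesn1 was 5.89 and 5.27 FPKM, a relative ratio of 1.17 (0.986 to 1.39). Sesn3 (chr9:14080745-14130578 on mm9, plus strand) was 10.5 and 6.19 FPKM, a relative ratio of 0.773 (0.647 to 0.922). Sesn3 was the only gene of the 29 whose interval lay below the median gene. Zmat3, an RNA-binding zinc finger gene, was 4.53 and 3.21 FPKM, a relative ratio of 0.930 (0.813 to 1.06). Ddit4l, a relative of the mTORC1 inhibitor REDD1, was 1.13 and 0.690 FPKM, and its interval from 0.488 to 1.31 included 1.

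Dram1 and Gdf15 were near the detection limit in CTRL. Dram1, a lysosomal protein gene of p53-dependent autophagy, was 0.103 FPKM in CTRL and 0.259 with etoposide, about 5 and 10 fragments, a relative ratio of 3.31 with an interval from 0.969 to 11.6. Gdf15, a secreted stress cytokine gene, was 0.299 and 0.617 FPKM, about 8 and 14 fragments, a relative ratio of 2.70 (1.07 to 7.49). For Dram1 a difference from the median gene was not detectable at this depth, and for Gdf15 the lower bound fell to 0.865 with the value of 1 fragment set 20 percent larger.

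**Figure D3:**
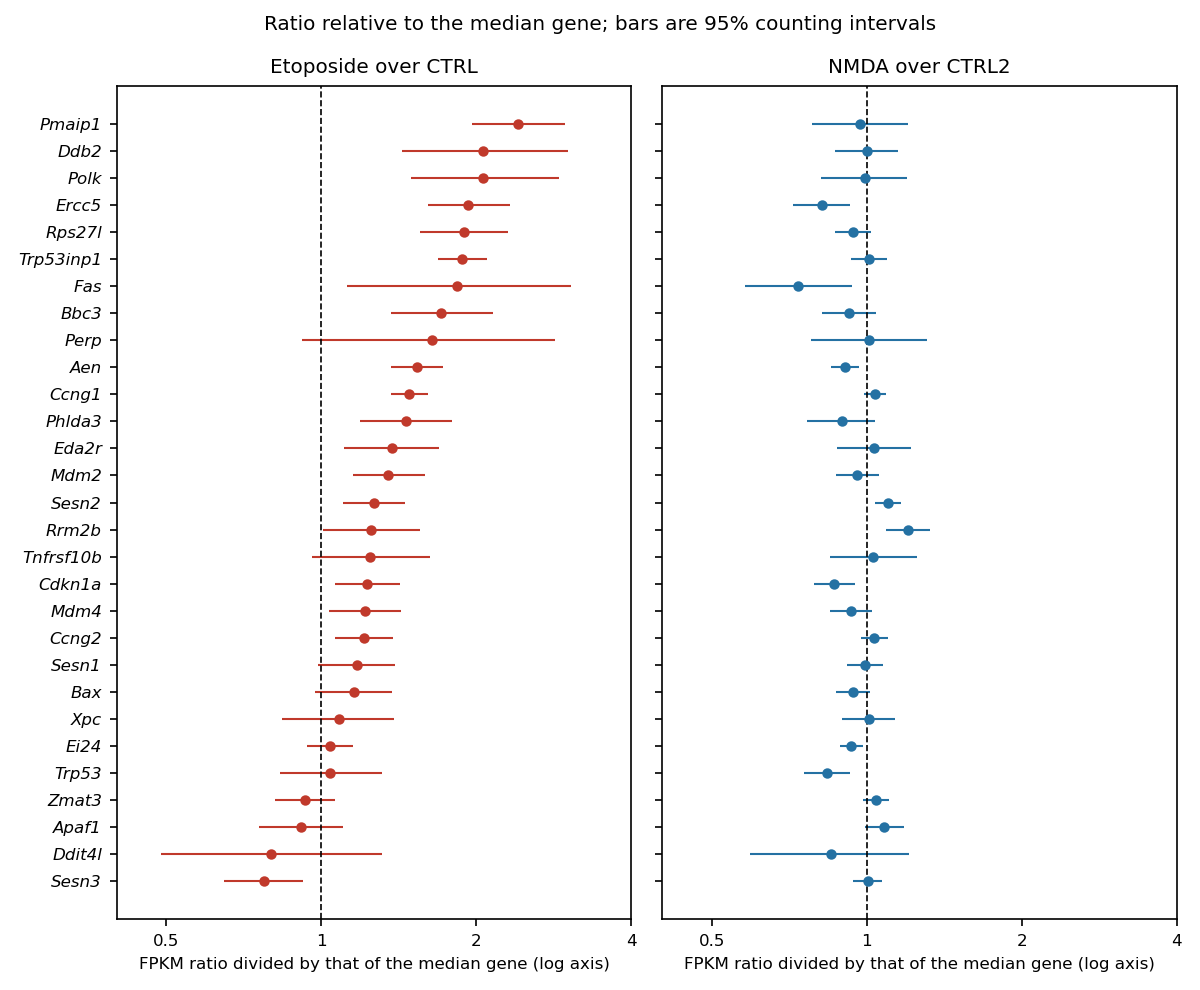
FPKM ratio of each gene divided by that of the median gene, on a log axis, for etoposide over CTRL and NMDA over CTRL2, with bars for the 95% counting interval and a dashed line at the median gene. With etoposide Pmaip1 is the highest of the 29 genes at 2.41 and Sesn3 the lowest at 0.773.

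The 2 controls give the only view of how far cultures with no treatment in their titles differ. Relative to the median gene, 14 of 29 genes stood above 0 in CTRL2 over CTRL, against 50% of 12987 genes by construction, with a median of -0.12. By the 1.5-fold rule 2 were higher (17.6% of all genes) and 6 lower (11.4% of all genes), more than the etoposide pair gave in the lower direction. The higher genes were Rps27l at 1.06 and Ddb2 at 0.70 on the relative log2 scale. The lower genes were Pmaip1 at -1.36, Ddit4l at -1.22, Eda2r at -1.08, Tnfrsf10b at -1.06, Phlda3 at -0.78 and Trp53inp1 at -0.72. In plain relative ratios, Pmaip1 was 0.327 (interval 0.263 to 0.408) and Trp53inp1 0.543 (0.493 to 0.599) in CTRL2 against CTRL. In size, 16 of the 29 values were larger between the controls than between etoposide and CTRL, which share the CTRL library, as were 56% of all genes compared in both. Pmaip1, Rps27l, Phlda3, Eda2r, Tnfrsf10b, Ddit4l and Cdkn1a were among the 16. The marker sums of glia and progenitors differed between the same 2 libraries, as given above, and their part in these differences was not tested.

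Each gene was then read in all 4 libraries in units of the median gene. Pmaip1 was 0.604 in CTRL, 1.50 with etoposide, 0.191 in CTRL2 and 0.184 with NMDA. Trp53inp1 was 1.18, 2.29, 0.620 and 0.624 in the same order, and Cdkn1a was 2.34, 2.95, 1.46 and 1.26. In these 3 genes the etoposide library was the highest of the 4, and CTRL stood above CTRL2 and NMDA. Rps27l was 3.47, 6.76, 6.16 and 5.77, and Ddb2 was 0.246, 0.523, 0.504 and 0.502. For Rps27l and Ddb2 CTRL was the low library, and the etoposide level was close to that of CTRL2. Sesn3 was 1.86, 1.48, 2.33 and 2.33, lowest with etoposide.

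Of the 26 genes at 1 FPKM or more in all 4 libraries, 20 had their highest level in the etoposide library, against 35.7% of 9533 genes. By the controls alone, 20 were above both controls with etoposide, against 37% of 9533 genes, and 2 were below both, against 30.9%. With NMDA, 4 of the 26 were above both controls (23.2% of genes) and 10 below both (26.4%). Against CTRL2 with median scaling, the relative log2 fold with etoposide was 2.69 for Pmaip1, 1.84 for Trp53inp1 and 1.46 for Ercc5. It was 1.06 for Polk and 1.04 for Cdkn1a. The same value was 0.75 for Bbc3, 0.42 for Fas, 0.18 for Rps27l, 0.10 for Ddb2 and -0.59 for Sesn3. Of the 8 highest genes against CTRL, Fas, Rps27l and Ddb2 were thus under 1.5-fold against CTRL2, and so was Bbc3 without median scaling, at 0.49. Pmaip1, Trp53inp1, Ercc5 and Polk were at least 2-fold higher against CTRL2.

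**Figure D4:**
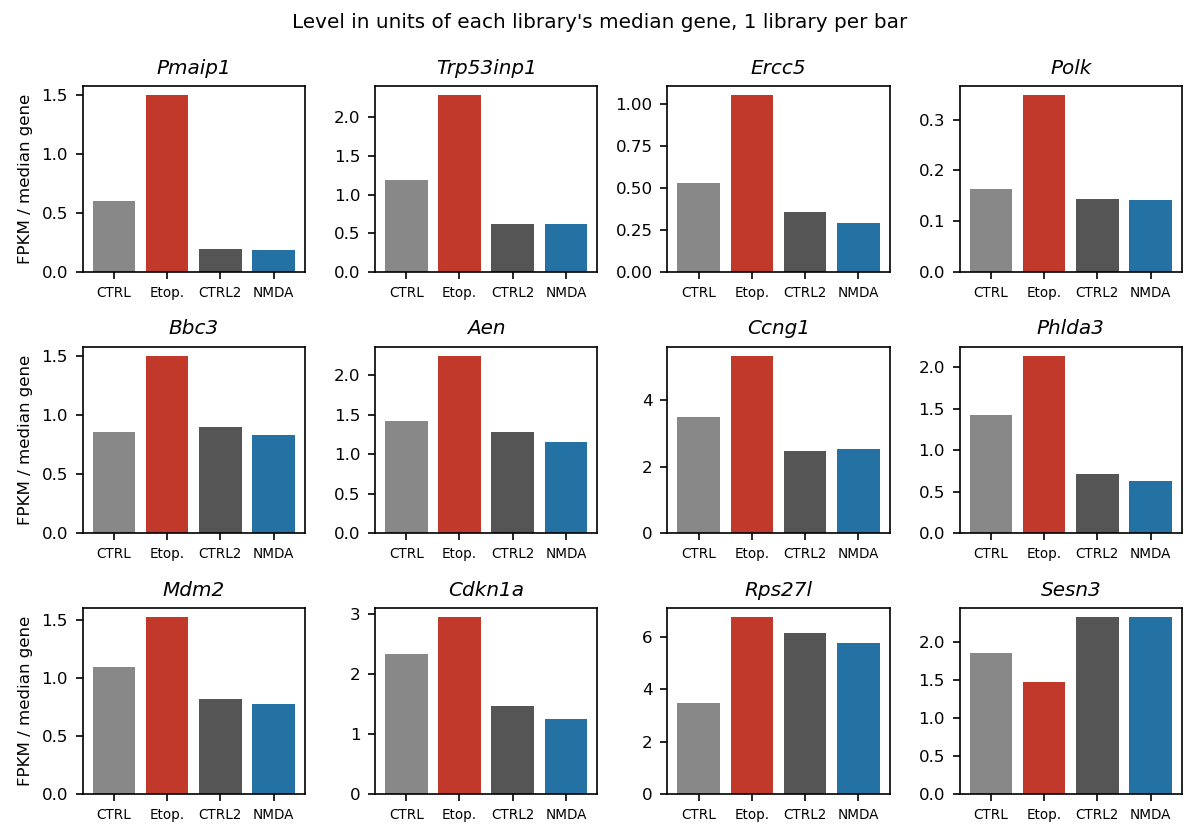
Level of 12 of the genes, chosen after their values were seen, in units of the median gene of each library, 1 library per bar. The etoposide bar is the highest of the 4 for each gene drawn except Sesn3, where it is the lowest at 1.48.

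With NMDA the p53 genes lay close to the median gene. Of the 29 genes compared, 13 were above 0, against 50% of 13028 genes by construction, and the median was -0.01 with a range from -0.37 for Fas to 0.24 for Rrm2b. None reached 1.5-fold in either direction, and few genes did at all, 0.645% of them higher and 1.32% lower. Against CTRL in place of CTRL2, 3 were higher (16.6% of all genes) and 8 lower (12.2%), and with median scaling 2 (13.3%) and 8 (8.06%). The authors' deposited table for NMDA lists 63 genes, 25 higher and 38 lower, and none of the 32. Beside the 22440 genes measured, so short a list would hold few or none of any 32 genes. The counting interval included the median gene for 21 of the 29, lay above it for 2 and below it for 6. Of all 12788 genes with a transcript length, 16.8% lay above and 16.6% below, so the p53 genes did not lie off the median gene more often than genes in general. Astrocyte, oligodendrocyte, progenitor and vascular marker sums were closer in this pair than in the etoposide pair.

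Above the median gene were Rrm2b and Sesn2. Rrm2b was 7.99 FPKM in CTRL2 and 9.78 with NMDA, a relative ratio of 1.20 (1.09 to 1.32), and with the mean transcript length its interval reached 1. Sesn2 was 32.8 and 36.9 FPKM, a relative ratio of 1.10 (1.04 to 1.16). Both differences were small beside those seen with etoposide for the 8 highest genes.

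The 6 genes below the median gene were Trp53, Cdkn1a, Ei24, Aen, Fas and Ercc5. Trp53 was 12.5 FPKM in CTRL2 and 10.7 with NMDA, a relative ratio of 0.837 (0.756 to 0.926). Cdkn1a was 25.2 and 22.2 FPKM, a relative ratio of 0.865 (0.788 to 0.949). Trp53 and its best known target thus both stood slightly below the median gene. Fas was 5.50 and 4.12 FPKM, 0.734 relative to the median gene (0.580 to 0.938), and Ercc5 was 6.19 and 5.17 FPKM, 0.817 (0.719 to 0.929). Ei24 at 0.933 (0.886 to 0.983) and Aen at 0.907 (0.850 to 0.967) were closer to it. These intervals cover counting error only, and the controls differed by more than this for Cdkn1a, whose relative ratio of CTRL2 to CTRL was 0.646.

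Pmaip1, the highest gene with etoposide, was 3.29 FPKM in CTRL2 and 3.26 with NMDA, a relative ratio of 0.970 (0.782 to 1.20). Mdm2 was 14.1 and 13.8 FPKM, Bbc3 15.5 and 14.7, and Bax 65.4 and 62.6. For all 4 the interval included the median gene. By role, the medians of the relative log2 fold with NMDA were -0.09 for p53 and its controllers, 0.05 for cell cycle arrest, -0.09 for intracellular death steps, 0.03 for death receptors, 0.00 for repair and 0.00 for growth and stress control. Gdf15 was 0.524 FPKM in CTRL2 and 0.0521 with NMDA, about 17 and 2 fragments, a relative ratio of 0.0974 with an interval from 0.0142 to 0.535. That gene stayed under 1 FPKM in all 4 libraries.

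The wider pathway around these genes was near the median gene. Of 23 kinases, ligases and cofactors that act on p53, 17 were compared with etoposide and 9 stood above 0. Their median was 0.01, and -0.12 with median scaling. None passed 1.5-fold. The largest values were -0.55 for Ppp1r13b (ASPP1, a p53 cofactor), 0.54 for Sirt1 (a deacetylase of p53), -0.44 for Usp7 (a deubiquitinase of p53 and MDM2) and 0.43 for Rchy1 (the ligase PIRH2). With NMDA 20 were compared and 15 stood above 0, with a median of 0.04, and the largest was Dyrk2, a p53 kinase gene, at 0.32.

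Of 33 symbols listed for further p53 targets, 30 were in the tables and 23 were compared with etoposide. Of these 13 stood above 0 and the median was 0.09, so this list lay nearer the median of all genes than the 32. Set against genes of like span, 11 of the 23 stood above 0 and the median was -0.02. By the 1.5-fold rule 3 of the 23 were higher, against 9.21% of all genes, and 1 lower, against 10.2%. The higher genes were the antiproliferative genes Btg2 at 0.81 and Btg1 at 0.79 and the phosphatase gene Dusp5 at 0.66. Dusp5 passed 1 FPKM only with etoposide, at 0.991 FPKM in CTRL and 1.52 with etoposide. The lower gene was Ephx1, an epoxide hydrolase gene, at -0.68. Btg2 was 3.11 FPKM in CTRL and 4.77 with etoposide. With NMDA 28 were compared, 11 stood above 0, the median was -0.04 and none passed 1.5-fold. The largest value with NMDA was -0.47 for Pltp.

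Of 16 cell cycle genes that p53 is known to repress through p21, Ccna2 alone reached 1 FPKM in the etoposide pair, at 1.08 FPKM in CTRL and 1.04 with etoposide. Their summed level was 7.26 and 3.85 FPKM. With NMDA all 16 were compared, 5 stood above 0 and the median was -0.02. In the etoposide pair these genes were thus too low for a description of that repressed group.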

How the data were processed

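RNA of 4 libraries, 1 per group, was analysed from FPKM tables that the authors deposited (22440 genes, mm9). The libraries came from a total RNA kit and were read from both ends, per the labels' protocols. Cufflinks 2.0.0, Cuffdiff, TopHat and Bowtie are among the tools that the submitters' processing notes list, without a role.

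The 32 genes, the other gene lists and the tests were chosen with earlier results of these data known. Folds are log2 with 1 FPKM added to both values, over genes that reached 1 FPKM in the treated or the control library, minus the median of all such genes. This scale understates the change of low genes, and subtracting a negative median lifts them, so 3 other scalings are given. Fragment numbers were FPKM times the longest GENCODE transcript, divided by the FPKM of 1 fragment on 1 kb (0.0469 to 0.0701), and are approximate. Intervals are 95% exact (Clopper-Pearson) and cover counting error only. The scripts (Python 3.11.15, scipy 1.17.1) were tested on simulated data. From each other list, up to 4 genes were named by size of fold. Coordinates of genes are mm9 and those of promoters GRCm38.p6. Alternatives were the pseudocount, the filter, the scaling, genes of like level or span, the other control and the transcript length.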

Additional observations from a re-analysis of the deposited data

How the results depend on the processing

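Of the counts and medians that answer a comparison, 50 values under alternatives stayed close to the main one, 5 moved and 1 reversed. The median of the 32 genes with etoposide was 0.16 with no filter, where all genes enter. With a filter at 5 FPKM in 1 library or the other fewer genes were compared, and 15 of 16 stood above the median with etoposide and 7 of 23 with NMDA. Against the other control the NMDA median was -0.11, and -0.10 with median scaling. The median of CTRL2 over CTRL reversed to 0.076 with no filter, and the cause was not tested. Rps27l reversed with etoposide against the other control, to -0.20, though median scaling gave 0.18. Of the other values 797 stayed close and 175 moved.

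The 8 genes at least 1.5-fold higher with etoposide became 2 with no filter, 13 against the other control and 14 there with median scaling. At 2-fold 1 was left on the scale with 1 FPKM added. With NMDA the counts of 0 higher and 0 lower became 3 (16.6% of all genes) and 8 (12.2%) against the other control, and 2 (13.3%) and 8 (8.06%) with median scaling. The like-span setting with median scaling and the larger value of 1 fragment were chosen after seeing the data.

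No paired analysis was possible because each group has 1 library, and for the same reason leaving out a library was not run. Depth limits Trp73, Dram1, Gdf15, Perp and Fas, each with fewer than 50 fragments in every library of the etoposide pair.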
